A study of Mus musculus with 18 samples.

Results

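The pair of CTCF sites HS+44 and HS+48 lies on the downstream side of the mouse α-globin locus, and the comparison described here asked how contacts across chromosome 11 changed when both sites were deleted. The members were chosen by genotype and experiment, not by any measured value: the 3 ∆44/48 (D4448) samples of experiment 1 were set against the 3 wild-type (WT) samples of the same experiment, which gives 6 of the 18 samples in the series. Every sample held Ter119+ erythroid cells, red cell precursors sorted by a surface antigen, from the spleens of adult C57BL/6 mice treated with phenylhydrazine, a haemolytic agent that makes the spleen fill with erythroid cells. ∆44/48 mice were homozygous for CRISPR-Cas9 deletions of 77 bp at HS+44 and 6 bp at HS+48 in every cell of the body, and the WT mice carried neither deletion. The 3 samples of a group were biological replicates, so each p-value below measures the spread between these 6 samples, and whether the ∆44/48 animals came from 1 founder was not given in the sources used here. NG Capture-C cuts fixed chromatin with DpnII, ligates fragments that touch, pulls out those joined to a chosen fragment (the viewpoint) and counts each distinct ligation once. The α-globin viewpoints were HS-38 (a CTCF site at the upstream border), the enhancers R1 and R2, and the adult genes Hba-a1 and Hba-a2. Viewpoints at the β-globin genes Hbb-b1 and Hbb-b2 on chromosome 7 and at Slc25a37 on chromosome 14 lay on chromosomes without an edit, and served as controls.

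CTCF is a zinc finger protein that halts cohesin as this ring complex extrudes chromatin loops, and it does so mostly when its motif faces the oncoming cohesin. In erythroid cells the α-globin enhancers, which sit in and near the introns of Nprl3, and the α-globin genes form a small self-interacting domain (a sub-TAD) within a larger topologically associating domain (TAD) that is shared between tissues. CTCF sites flank this sub-TAD on both sides. The genes beyond HS+48 are Sh3pxd2b (an adaptor protein of podosomes), Ubtd2 (a ubiquitin-domain protein), Efcab9 (a calcium-binding protein of the sperm CatSper channel), Stk10 (a serine/threonine kinase) and Fbxw11 (a substrate receptor of an SCF ubiquitin ligase).

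The deleted bases are shown because the comparison turns on them. The capitals mark the bases missing from the ∆44/48 allele, each with 30 bases of flank in lower case, on the forward strand of mm9 (NCBIM37). HS+44 lost chr11:32221341-32221417 and HS+48 lost chr11:32224851-32224856.
HS+44: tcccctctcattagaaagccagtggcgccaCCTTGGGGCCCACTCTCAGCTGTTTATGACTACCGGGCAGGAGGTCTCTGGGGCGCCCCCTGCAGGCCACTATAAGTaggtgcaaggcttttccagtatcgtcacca
HS+48: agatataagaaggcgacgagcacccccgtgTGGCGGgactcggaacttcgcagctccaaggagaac
Both stretches are intergenic, between the end of Hbq1a, a θ-globin gene, at 32200873 and the start of Sh3pxd2b at 32247820. Of the deleted bases, 48 of 77 at HS+44 and 5 of 6 at HS+48 were G or C. Neither deletion removed or made a GATC, the DpnII site, so the fragments counted were bounded by the same sites in both genotypes. The fragments over HS+44 (chr11:32220920-32221718) and HS+48 (chr11:32224325-32227296) are shorter by the deleted bases in ∆44/48. Both deletions fall into the 10 kb bin that starts at 32220001.

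The libraries of 1 ∆44/48 sample stood apart in depth and cis share. Counts summed over all viewpoints were 940582, 1120609 and 988026 in the WT samples and 345162, 781879 and 877191 in the ∆44/48 samples. The make-up by viewpoint differed in the other ∆44/48 samples too. Replicates 2 and 3 gave 112496 and 168462 counts from Slc25a37, against 91829 to 108652 in WT. From Hbb-b1 they gave 75351 and 59101, against 124379 to 148785 in WT. In ∆44/48 replicate 1 the share of counts on the viewpoint's own chromosome (in cis) was 55.5% to 61.8% from the α-globin viewpoints, against at least 66.7% in each of the other 5 samples. Its contacts on other chromosomes were also counted more often per fragment, up to 2.04 counts from R1 against at most 1.30 in the other ∆44/48 samples from that viewpoint. Its part in the results was measured by leaving it out, and values without it are given beside some of the counts of calls and changes. Levels below are counts per 100000 cis counts of the viewpoint in that sample, leaving out 1 kb around each capture fragment, and are called normalised interactions. Counts from Hba-a1 and Hba-a2 were not independent, since 70.8% to 78.9% of the fragments that either of these near-identical genes met on other chromosomes were listed for both.

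From every α-globin viewpoint, contacts fell just before and over the deleted sites and rose beyond them. Chromosome 11 was tested in 10 kb bins with at least 30 counts over the 6 samples, by the quasi-likelihood test of edgeR with p-values adjusted within each viewpoint (Benjamini-Hochberg), and a bin was called at an adjusted p under 0.01. From HS-38, 32 of 1268 bins were called, 30 higher and 2 lower in ∆44/48 (2.52%). R1 gave 22 of 1017 (20 higher, 2 lower, 2.16%), Hba-a1 26 of 1324 (22 higher, 4 lower, 1.96%) and Hba-a2 23 of 1318 (20 higher, 3 lower, 1.75%). From R2, 7 of 1194 bins were called, all higher (0.586%). The 110 calls fell into 37 different bins, all of them between 32120001 and 32630000, and the remaining bins of the chromosome held none. In all but 1 of the 110 calls the 3 ∆44/48 samples did not overlap the 3 WT samples, against 13.6% to 15.1% of all bins tested from these viewpoints. Of the calls, 90% were higher by edgeR and 79.8% (75 of 94) by DESeq2. Without ∆44/48 replicate 1 the total was 123, and R2 then gave 16. The total was 64 without ∆44/48 replicate 2, 72 without WT replicate 1 and 67 with TMM scaling, under which R2 gave 0.

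**Figure D1:**
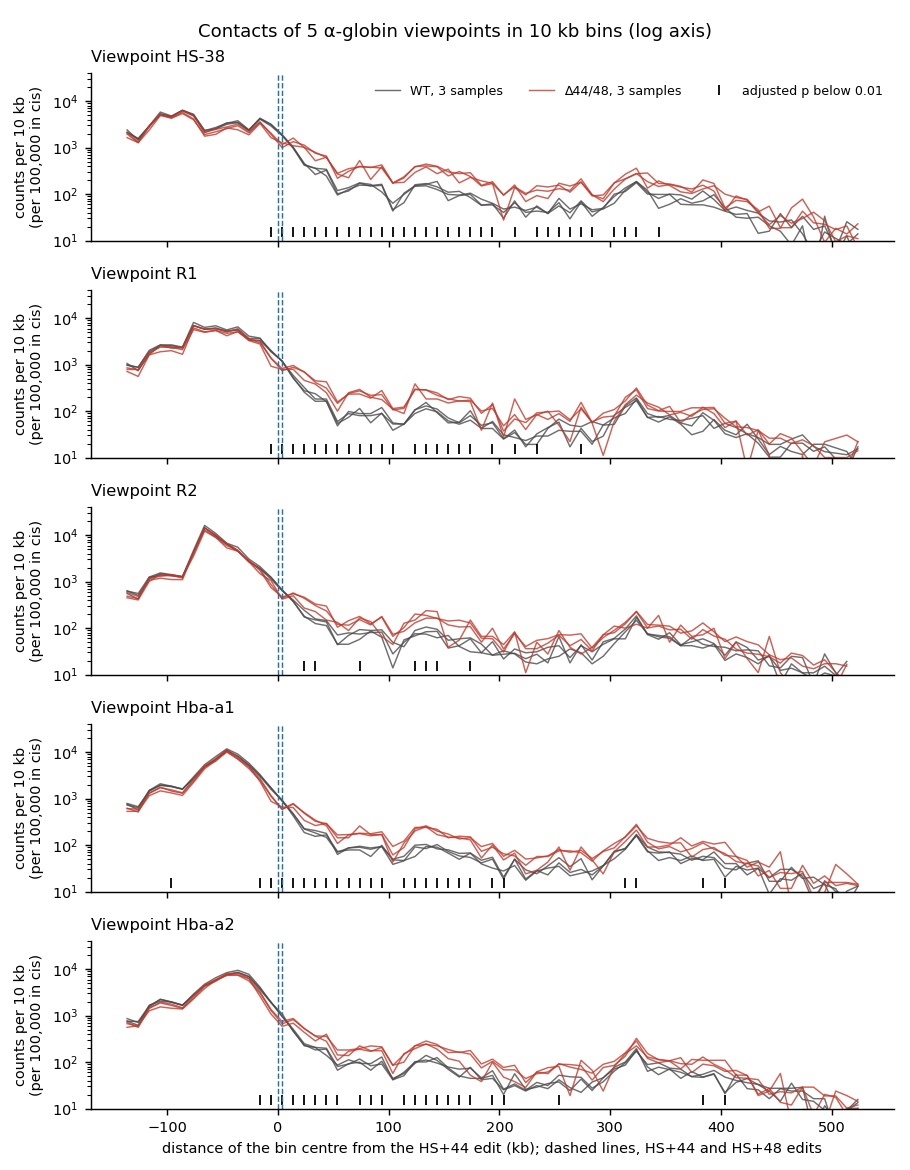
Normalised interactions per 10 kb bin (log scale) from each α-globin viewpoint against distance in kb from the start of the HS+44 deletion, with a line for each of 3 WT (grey) and 3 ∆44/48 (red) samples, dashed lines at the edits and ticks under called bins. The red lines lie under the grey ones just before 0 kb and mostly above them in the bins from 8.66 kb onward, with the narrowest gap from R2. The maximum near the start of Fbxw11 is present in both genotypes.

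The bin that holds both deletions, chr11:32220001-32230000, lost contacts. From HS-38 its level was 1909.5, 1837.9 and 1827.3 normalised interactions in WT and 1265.4, 1167.4 and 1001.8 in ∆44/48. The groups did not overlap, and the log2 fold change was -0.71 ± 0.09 (SE, edgeR adjusted p = 4.3e-06). It was also called lower from R1 (-0.60), Hba-a1 (-0.59) and Hba-a2 (-0.57), and from R2 the change of -0.56 did not pass (edgeR adjusted p = 0.0161), although the R2 groups did not overlap. The bin before it, from 32210001, fell from the same 4 viewpoints, and from HS-38 its WT levels of 2915.4 to 3186.2 compared with 1641.4 to 2042.5 in ∆44/48. The bin from 32200001, which starts over Hbq1a, was called lower from Hba-a1 and Hba-a2, and the bin from 32120001, over Rhbdf1, Nprl3 and Mpg, from Hba-a1. These calls near the threshold were unstable. Both Hba-a1 calls were present in 6 of 14 alternatives, and without ∆44/48 replicate 1 the bins from 32120001 and 32200001 changed by -0.29 and -0.28 (edgeR adjusted p = 0.0127 and 0.0173). The Hba-a2 call of the bin from 32200001 was present in 9 of 14 and was lost without that replicate (-0.29, edgeR adjusted p = 0.0217). Other single samples that ended these calls were ∆44/48 replicate 2 and WT replicate 2 for all 3, WT replicate 1 for the bin from 32200001, and WT replicate 3 for both Hba-a1 calls. The bins from 32210001 and 32220001 stayed called without ∆44/48 replicate 1 from the same 4 viewpoints, with -0.78 from HS-38 for the bin over the edits, and R2 then passed too (-0.53, edgeR adjusted p = 0.00608). The Hba-a2 call of the bin over the edits was lost without WT replicate 1 or 2 or ∆44/48 replicate 2 (edgeR adjusted p = 0.0114 to 0.0203).

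At the resolution of single DpnII fragments the fitted loss over HS+44 from HS-38, Hba-a1 and Hba-a2 exceeded that of the bin. From HS-38 the HS+44 fragment gave 205.1, 180.6 and 172.9 normalised interactions in WT and 45.8, 91.1 and 89.5 in ∆44/48, a log2 fold change of -1.19 ± 0.21 (edgeR adjusted p = 7.28e-06). Hba-a2 gave -1.16 (edgeR adjusted p = 0.000231) and Hba-a1 -1.01 (0.00446), with no overlap between groups from any of these viewpoints. The HS-38 call was present in 14 of 14 alternatives, that of Hba-a2 in 9 and that of Hba-a1 in 4. DESeq2 did not call Hba-a2 (adjusted p = 0.073) or Hba-a1 (0.572), omission of any 1 sample ended the Hba-a1 call (edgeR adjusted p = 0.0108 to 0.147), and omission of WT replicate 2 or of ∆44/48 replicate 1 or 2 ended that of Hba-a2 (0.0112 to 0.0184). From R1 the WT levels of 115.2 to 125.7 lay within the ∆44/48 range of 88.2 to 138.2, and the R1 change of -0.22 and the R2 change of -0.92 were not called. The highest ∆44/48 value from R1, in replicate 1, rested on 25 counts. The HS+48 fragment, with changes of -0.76 to -0.03, was called from no viewpoint at the main setting (unadjusted p under 0.05 from HS-38, R2, Hba-a1 and Hba-a2). From HS-38 it was called lower by edgeR with TMM scaling (-0.88, adjusted p = 0.00807) and by DESeq2 (-0.88, adjusted p = 0.00259). Over all fragments of the chromosome, 0.759% were called from HS-38, 0.368% from Hba-a1, 0.484% from Hba-a2 and 0% from R1 and R2. Without ∆44/48 replicate 1, HS+44 and HS+48 were each called from 1 viewpoint. These fragments held 2 to 130 counts per viewpoint and sample.

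The bin from 32230001 was called higher from HS-38, R1, Hba-a1 and Hba-a2 and was not called from R2. The first bin past the edits that was called higher from all 5 viewpoints was chr11:32240001-32250000. The next CTCF sites downstream, HS+65 and HS+66, fall into it if their names are read as kb positions on the scale of HS+44. From HS-38 this bin rose from 434.0, 459.8 and 417.2 to 1017.8, 1004.1 and 1130.6 normalised interactions, a log2 fold change of 1.27 ± 0.11 (edgeR adjusted p = 5.32e-09). Every ∆44/48 sample lay far above every WT sample. R1 gave 1.15, Hba-a1 1.11, Hba-a2 1.10 and R2 1.02, each called. From R2 the 3 ∆44/48 levels were 270.6, 460.9 and 437.8 against 181.0, 172.4 and 241.0 in WT, with replicate 1 nearest to WT. The R2 call was lost with TMM scaling, with DESeq2 and without WT replicate 1 or ∆44/48 replicate 2 or 3 (0.85 to 0.97, adjusted p = 0.0193 to 0.0829).

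The gain did not stop at that bin. Called bins ran without a gap, from at least 1 viewpoint each, from 32230001 to 32440000, and then with gaps to 32630000, which is 408.7 kb past the start of the HS+44 deletion. Of the bins called higher, 7 were called from all 5 viewpoints, 8 from 4, 2 from 3, 10 from 2 and 6 from 1. Larger fold changes lay well beyond the next CTCF sites. The bin from 32340001, between Sh3pxd2b and Ubtd2, rose 3.14-fold from R1, with 88.9, 107.0 and 105.6 normalised interactions in WT and 386.9, 290.1 and 296.7 in ∆44/48. The bin from 32350001, over the start of Ubtd2, rose 2.66-fold from Hba-a1, with WT levels of 93.2, 103.3 and 84.2 and ∆44/48 levels of 249.1, 240.4 and 260.0. In both bins every ∆44/48 sample exceeded every WT sample. The bin from 32540001, over the start of Fbxw11, was already a local maximum in WT, with 186.0, 186.1 and 176.1 normalised interactions from HS-38, and it rose less, to 275.1, 361.0 and 276.4 (1.68-fold, edgeR adjusted p = 0.00373).

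Chromosome 11 was next divided into 15 segments at the TAD and sub-TAD limits, and levels were expressed per kb. The stretch of 26.95 counted kb between the sub-TAD edge and the edits' far side, chr11:32202001-32230000, fell from all 5 viewpoints, by 0.39 (R2) to 0.52 (HS-38) on the log2 scale. From HS-38 it held 319.9, 312.0 and 299.8 normalised interactions per kb in WT and 209.6, 223.0 and 218.6 in ∆44/48, or 8.37% of cis counts against 5.85%. The next segment, chr11:32230001-32245000, up to the TAD's end, rose from all 5 by 0.63 (R2) to 0.84 (R1). From Hba-a1 it held 34.5, 38.5 and 40.1 per kb in WT and 54.3, 70 and 69.4 in ∆44/48, with no overlap.

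Just outside the TAD the gain was larger still as a fold change, but from lower levels. From HS-38 the mean per kb went from 83.3 to 130.8 in chr11:32230001-32245000 and from 17.3 to 40.1 in chr11:32245001-32350000. In chr11:32245001-32350000, which holds Sh3pxd2b, levels rose from all 5 viewpoints by 0.95 (R2 and Hba-a2) to 1.26 (R1) on the log2 scale. From R1 the values were 9.44, 10.6 and 11.1 per kb in WT and 23.3, 26.1 and 24.9 in ∆44/48, and the groups did not overlap. In chr11:32350001-32500000, over Ubtd2, Efcab9 and part of Stk10, the rise was 1.01 (R2) to 1.37 (HS-38), and the HS-38 share of cis counts went from 1.13% to 2.92%. The HS-38 values there were 7.58, 7.51 and 7.63 per kb in WT and 18.6, 19.7 and 20.3 in ∆44/48. From 32500001 to 33000000, over the rest of Stk10 and Fbxw11, the rise was 0.53 (R1) to 0.76 (HS-38). Beyond that the following segment, up to 34000000, was called from no viewpoint (0.22 to 0.38, lowest edgeR adjusted p = 0.0128), and the segment from 34000001 to 42000000 from R1 (0.46), R2 (0.43) and Hba-a1 (0.35).

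Within the sub-TAD, chr11:32136001-32202000, contacts changed little. The change was -0.26 to -0.14 and was called from HS-38 alone, although the sub-TAD still held 16.7% to 40.3% of cis counts in ∆44/48 against 20% to 44.4% in WT, depending on the viewpoint. The upstream part of the TAD, chr11:32080001-32136000, over Il9r, Snrnp25, Rhbdf1 and Mpg, changed by -0.29 to -0.13 and was called from Hba-a1 alone. The segment upstream of the TAD, chr11:31500001-32080000, was called from none (-0.15 to -0.04). The segments called made up 40% of those tested from HS-38, R1 and R2, 46.7% from Hba-a1 and 33.3% from Hba-a2, 30 calls in all. Without ∆44/48 replicate 1 the 5 consecutive segments from 32202001 to 33000000 were still called from all 5 viewpoints (-0.49 to -0.37 over the edits, then 0.75 to 0.93, 0.98 to 1.30, 1.03 to 1.40 and 0.60 to 0.74), whereas 34000001 to 42000000 was called from 1 and the sub-TAD from 0. With TMM scaling the R1 calls of chr11:32230001-32245000 and of 32500001 to 33000000 were lost, at 0.69 and 0.38. Without ∆44/48 replicate 2 or 3, R2 lost its calls over the edits (-0.37 and -0.41), up to the TAD's end (0.53 and 0.56) and from 32500001 to 33000000 (0.47 and 0.54), and R1 lost the last of these (0.45 and 0.49). Without WT replicate 2, R2 lost its calls over the edits (-0.38) and up to the TAD's end (0.60), the latter also without WT replicate 3 (0.66), and library sizes from within 1 Mb ended its call over the edits (-0.30).

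**Figure D2:**
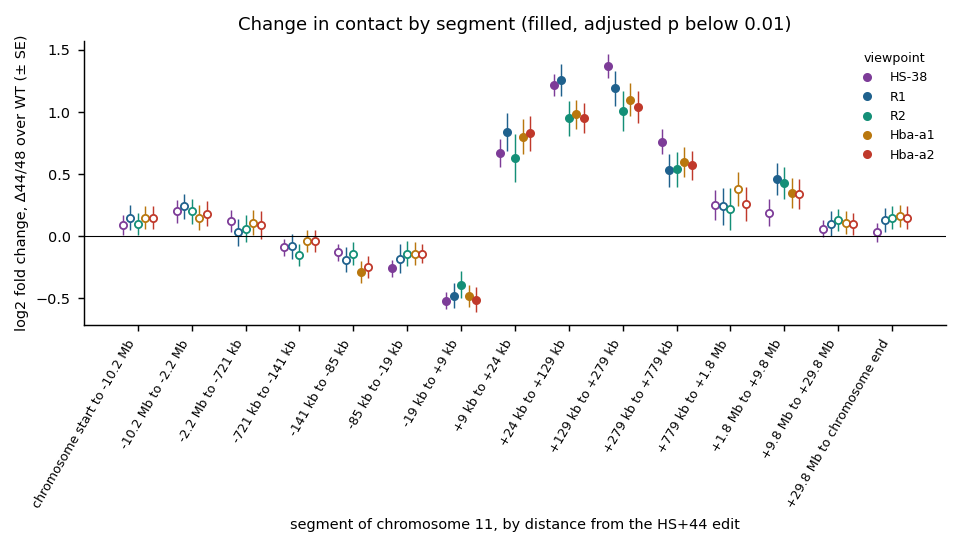
Log2 fold change (∆44/48 over WT) of normalised interactions in each chromosome 11 segment, in order of distance from the HS+44 deletion, from the 5 α-globin viewpoints, points with standard errors, filled where the edgeR adjusted p was under 0.01. The values drop to between -0.52 and -0.39 over the edits, rise to between 0.95 and 1.37 over Sh3pxd2b, Ubtd2 and Stk10, and lie between -0.15 and 0.46 in the segments upstream of the TAD and beyond 33000000.

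A ratio within a sample, which needs no scaling between samples, showed the same shift. For each sample the density from 32230001 to 32350000 was divided by the density from 32202001 to 32230000. From HS-38 the log2 ratio was -3.67, -3.62 and -3.54 in WT and -2.19, -2.03 and -2.03 in ∆44/48, a difference of 1.52. From R1 it went from -3.85 ± 0.10 to -2.26 ± 0.09 (SD, n = 3), a difference of 1.59, and the differences from Hba-a2, Hba-a1 and R2 were 1.43, 1.40 and 1.21. The differences were 1.31 (R2) to 1.58 (HS-38) without ∆44/48 replicate 1. Every ∆44/48 sample lay above every WT sample from all 5 viewpoints, and the two-sided exact permutation p was 0.1 for each, the smallest that 3 against 3 can give. The position that divides the counts between 32202001 and 32500000 evenly lay 1.0 to 3.5 kb before the HS+44 deletion in WT (group means over the 5 viewpoints) and 14.9 to 20.8 kb after its start in ∆44/48. From HS-38 it moved from -1.9, -1.8 and -1.6 kb to 20.9, 20.1 and 21.4 kb.

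The genes with more contacts in ∆44/48 were those beyond the deleted sites. Contacts were summed over gene bodies, divided by counted length and tested over every protein-coding gene of chromosome 11 with enough counts (483 to 566 by viewpoint). Of 21 protein-coding genes between 31500001 and 33000000, 17 were tested, since Hba-a1 and Hba-a2 lie in or beside the capture zones and Gm10462 and 1700008A04Rik had too few counts. Of these 17, 5 were higher in ∆44/48 from at least 1 viewpoint, 4 from all 5, and 0 were lower from any by edgeR (19 of 85 gene by viewpoint tests were lower at an unadjusted p under 0.05). The share called among all genes was 0.784% (HS-38), 0.828% (R1), 0.745% (R2), 0.712% (Hba-a1) and 0.883% (Hba-a2), and no gene outside this window was called.

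Sh3pxd2b (ENSMUSG00000040711.7, chr11:32247820-32328173, forward strand) starts 26.5 kb past the HS+44 deletion. From HS-38 it had 17.1, 16.9 and 18.7 normalised interactions per kb in WT and 38.2, 42.4 and 41.6 in ∆44/48, and the groups stood far apart. The log2 fold change was 1.22 from HS-38 (edgeR adjusted p = 1.81e-32) and R1, and 0.91 from R2, Hba-a1 and Hba-a2. Ubtd2 (ENSMUSG00000044949.4, chr11:32355370-32416687) rose by 1.39 from HS-38, from 10.4, 10 and 9.75 per kb to 24.1, 26.3 and 28.7 (edgeR adjusted p = 3.41e-26), and by 1.08 to 1.26 from the other viewpoints. From R2 Ubtd2 had 5.16, 6.12 and 4.95 per kb in WT and 11, 12.4 and 11 in ∆44/48, again without overlap. As a share of its own cis counts, R2 had a lower level per kb of both genes than HS-38 in either genotype.

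Stk10 (ENSMUSG00000020272.8, chr11:32433305-32524587) begins 212.0 kb past the HS+44 deletion. From HS-38 its level went from 5.11, 5.17 and 5.58 per kb to 12.7, 12.9 and 12.7 (log2 1.27, edgeR adjusted p = 5.47e-19), and from R2 by 0.76 (edgeR adjusted p = 0.0065). Fbxw11 (ENSMUSG00000020271.10, chr11:32542724-32646816) was called from all 5 viewpoints with smaller changes of 0.62 (R1) to 0.87 (HS-38), and its HS-38 levels were 7.41, 8.6 and 7.24 in WT and 15.7, 13.7 and 13.3 in ∆44/48. Efcab9 (ENSMUSG00000044056.3), which lies between Ubtd2 and Stk10, changed by 0.71 to 1.17 and was called from Hba-a2 alone (edgeR adjusted p = 0.0087), where it had 3.51, 3.08 and 3.86 per kb in WT and 5.11, 8.23 and 8.86 in ∆44/48. From HS-38 Efcab9 had 4.78, 4.63 and 6.31 per kb in WT, and was below this in ∆44/48 replicate 1, at 3.45, and above it in the other 2 samples, at 13.5 and 12.7. Without that replicate Efcab9 was called from 2 viewpoints and the other 4 genes from all 5. TMM scaling kept the direction of each but ended the calls of Sh3pxd2b (0.76), Stk10 (0.62) and Fbxw11 (0.51) from R2, of Fbxw11 (0.49) from R1 and of Efcab9 (1.07) from Hba-a2. DESeq2 ended the calls of Stk10 (adjusted p = 0.0967) and Fbxw11 (0.0538) from R2, of Fbxw11 from R1 (0.0659) and of Efcab9 (0.249). The Efcab9 call was present in 4 of 14 alternatives and was lost without any 1 of the samples other than ∆44/48 replicate 1 (edgeR adjusted p = 0.102 to 0.338). The R2 call of Stk10 was present in 7 of 14 and was also lost without any 1 of those 5 samples (edgeR adjusted p = 0.0596 to 0.0875), and that of Fbxw11 in 8 of 14, lost without any 1 of the WT samples or ∆44/48 replicate 2 (0.0418 to 0.184). The R1 call of Fbxw11 was present in 10 of 14, and among single samples WT replicate 1 ended it (0.01).

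With all 6 samples, the genes inside the TAD were not called from any viewpoint. Nprl3, a subunit of the GATOR1 complex whose introns hold the enhancers, changed by -0.19 to -0.12, and from HS-38 it had 621.4, 613.3 and 591.6 per kb in WT and 526.2, 511.4 and 590.1 in ∆44/48, lower in each ∆44/48 sample. It was called lower from HS-38 without ∆44/48 replicate 3 (-0.23, edgeR adjusted p = 1.79e-06). Rhbdf1, an inactive rhomboid protein, changed by -0.27 to -0.11 and came nearest to the threshold from Hba-a1 (edgeR adjusted p = 0.027), as did Mpg, a DNA glycosylase (-0.29 to -0.09). The θ-globin genes Hbq1b and Hbq1a changed by -0.32 to -0.15 and by -0.36 to -0.08. From HS-38 Hbq1a had 1321.7, 1414.3 and 1261.3 per kb in WT and 704.3, 1082.3 and 1239.2 in ∆44/48, with replicate 1 the lowest. Upstream of the TAD, Cpeb4, Nsg2, Bod1 and 4930524B15Rik ranged from -0.51 to 0.35 and none was called.

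**Figure D3:**
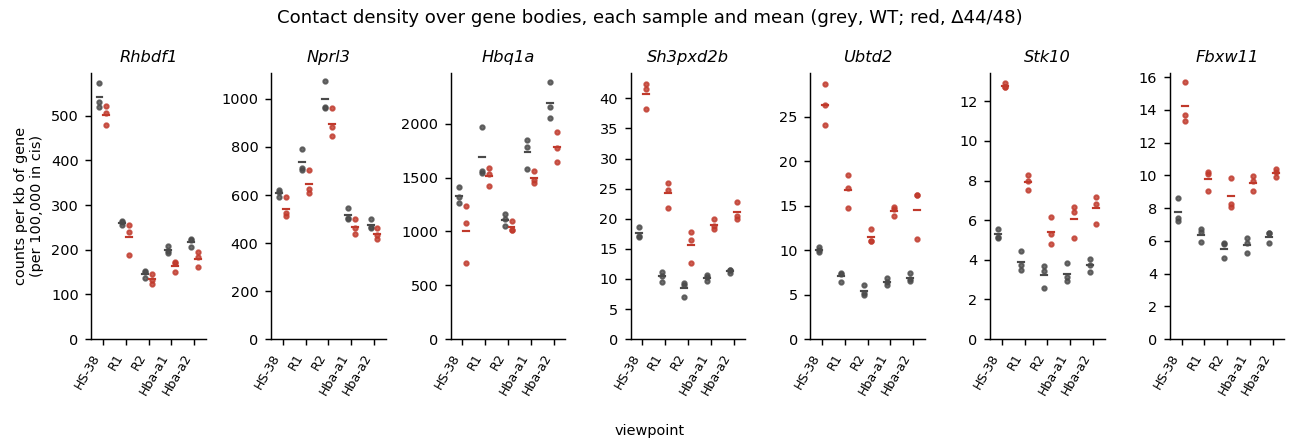
Normalised interactions per kb over 7 gene bodies from the 5 α-globin viewpoints (linear axes from 0, each gene on its own scale), with points for the 3 WT (grey) and 3 ∆44/48 (red) samples and bars for the means. The red points lie above the grey ones for Sh3pxd2b, Ubtd2, Stk10 and Fbxw11 and mix with or lie under them for Rhbdf1, Nprl3 and Hbq1a.

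Whether the viewpoints differed from each other was tested with a viewpoint by genotype term for each of the 10 pairs of α-globin viewpoints over the 15 segments, 150 tests with p-values adjusted over all of them. Of these, 3 passed an adjusted p of 0.01 (2%) and 28 had an unadjusted p under 0.05. The gain in chr11:32245001-32350000 was larger from R1 than from Hba-a1, by 0.29 (95% interval 0.16 to 0.42, edgeR adjusted p = 0.00963), and than from Hba-a2, by 0.31 (0.16 to 0.47, edgeR adjusted p = 0.00998). The loss in chr11:32080001-32136000 was smaller from R2 than from Hba-a1, by 0.14 (0.07 to 0.21, edgeR adjusted p = 0.00963). HS-38, which had the largest rises at Ubtd2 and Stk10, exceeded R2 in chr11:32350001-32500000 by 0.36 (0.15 to 0.58), which did not pass (edgeR adjusted p = 0.039). These few differences were not stable, since leaving out single samples gave 0 to 7 calls and TMM scaling gave 24. Pairs of viewpoints in a sample come from the same cells, and the fit took this into account with a term for each sample. The counts shared between Hba-a1 and Hba-a2 were not modelled.

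The control viewpoints showed how far contacts moved on chromosomes without an edit. From Hbb-b1, 0 of 1108 bins on chromosome 7 were called by edgeR (0%), with 108 at an unadjusted p under 0.05 and 0 by DESeq2. From Hbb-b2, 3 of 1246 were called (0.241%), of which 1, from 110950001 and near the viewpoint, was lower. That bin had 4194.2, 3835.6 and 3822.5 normalised interactions in WT and 2495.6, 2839.9 and 2060.4 in ∆44/48, a call that was lost without any 1 WT sample (edgeR adjusted p = 0.0432 to 0.0668). The other 2 lay far from the viewpoint and held few counts. The bin from 147650001 had 0 counts in each WT sample and 3, 9 and 27 in ∆44/48, at least 9.19-fold higher against a floor of 3 counts in each WT library (counting error only). By the capture coordinates, the viewpoint labelled Hbb-b1 lies over the gene annotated Hbb-b2, and the one labelled Hbb-b2 over Hbb-b1.

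The β-globin viewpoints nevertheless shifted as a whole. The share of Hbb-b1 cis counts within 1 Mb was 58.0% to 62.6% in WT and 46.8% to 53.0% in ∆44/48, without overlap, and the shares from Hbb-b2 were 59.3% to 63.7% and 48.4% to 53.7%. The median bin on chromosome 7 accordingly moved by 0.27 (Hbb-b1) and 0.30 (Hbb-b2) on the log2 scale. The α-globin medians on chromosome 11 moved by 0.07 to 0.10, and by -0.09 to -0.03 with TMM scaling, so changes near these sizes are within the scaling. The part of this general shift in the α-globin values was measured by comparing viewpoints at equal distances, a test added after the values had been seen.

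At distances of 100 to 200 kb and 200 to 500 kb toward the chromosome end, each of the 5 α-globin viewpoints gained against each of Hbb-b1 and Hbb-b2, by 0.68 to 1.13 and by 0.81 to 1.25 on the log2 scale, and all 20 tests passed the adjusted p of 0.01. From Hba-a1 the share of cis counts 100 to 200 kb away went from 0.689%, 0.81% and 0.759% to 1.6%, 1.74% and 1.63%. At 50 to 100 kb, a class that begins past the edits only as seen from the globin genes, Hba-a1 and Hba-a2 gained against both (1.14 to 1.22) and HS-38, R1 and R2 did not pass (-0.09 to 0.12). Beyond 500 kb in this direction none passed against Hbb-b1 or Hbb-b2 (-0.32 to 0.28). Toward the chromosome start the α-globin viewpoints were lower relative to the β-globin ones at 500 to 1000 kb in 9 of 10 tests (-0.75 to -0.52) and at 1000 to 2000 kb in 7 of 10 (-0.52 to -0.33). At 500 to 1000 kb the α-globin shares themselves changed by -0.15 (R2) to 0.06 (HS-38), and those of Hbb-b1 and Hbb-b2 by 0.57 and 0.60, so this difference came from the β-globin side. Within 50 kb the α-globin viewpoints were relatively higher in 6 of 10 tests (0.29 to 0.48), where Hbb-b2 itself fell by 0.58. With Slc25a37 included, 86 of 300 such tests passed (28.7%). That control itself gained 4.17-fold in a run 77 to 187.0 kb away toward the chromosome end, described below. The largest α-globin rise at 100 to 200 kb on that side was 2.35-fold, from R1. The gains given here are therefore against the β-globin viewpoints only. Without ∆44/48 replicate 1, both gaining classes toward the chromosome end still passed in 10 of 10 tests (0.65 to 1.08 and 0.79 to 1.24), and the classes of 500 to 1000 and 1000 to 2000 kb toward the start in 10 and 7.

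**Figure D4:**
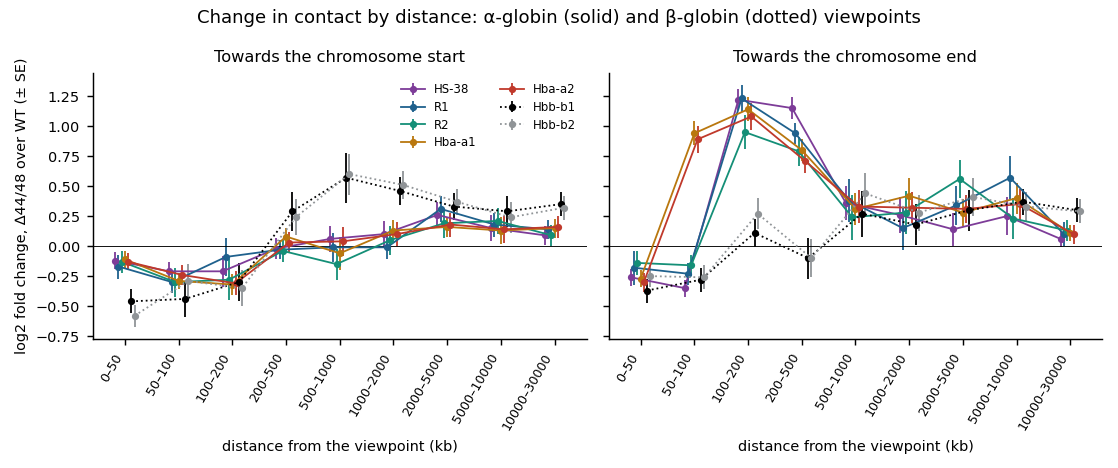
Log2 fold change (∆44/48 over WT) of the share of cis counts by distance from the viewpoint, toward the chromosome start and toward the chromosome end, for the α-globin (solid) and β-globin (dotted) viewpoints, with standard errors. The α-globin viewpoints lie above the β-globin ones between 100 and 500 kb toward the chromosome end, and under them between 500 and 2000 kb toward the start, where the β-globin values are the ones away from 0.

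The bins with the smallest adjusted p from any viewpoint lay on another chromosome without an edit. Slc25a37 encodes mitoferrin, the carrier that brings iron into mitochondria for haem synthesis, and its viewpoint is chr14:69902454-69903469. From it 15 of 958 bins on chromosome 14 were called, 12 higher and 3 lower (1.57%), and 11 of those higher formed 1 run from 69980001 to 70090000. The run lies 77 to 187.0 kb from the viewpoint, over the end of Entpd4 (a Golgi nucleotidase) and most of Loxl2 (a lysyl oxidase-like enzyme, chr14:70008978-70095640). In the bin from 70080001 the levels were 195.4, 126.5 and 152.8 normalised interactions in WT and 1107.3, 1281.2 and 1534.9 in ∆44/48 (log2 3.06 ± 0.16, edgeR adjusted p = 7.68e-77). The bin from 70070001 rose 10.4-fold, the first bin of the run 1.69-fold and the last 8.35-fold. The next bin, from 70090001, was not called (1.49-fold), so the gain fell off between 1 bin and the next, near the 3′ end of Loxl2.

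The run held 1.89%, 1.64% and 1.73% of Slc25a37 cis counts in WT and 5.95%, 7.01% and 8.98% in ∆44/48, a 4.17-fold rise (two-sided exact permutation p = 0.1, the smallest possible). All 11 bins were also called without ∆44/48 replicate 1 (0.88 to 3.47 on the log2 scale). Seen from viewpoints on other chromosomes, the same interval took 0.168%, 0.185% and 0.0564% of the counts on chromosome 14 in WT and 0.135%, 0.217% and 0.373% in ∆44/48, on 7 to 31 counts a sample, and the groups overlapped (exact permutation p = 0.4). Lower bins lay at 69850001 and 69860001, over the 3′ part of Slc25a37 and just beyond it, and at 70140001. TMM scaling ended all 3 of these lower calls (-0.41, -0.59 and -0.85, edgeR adjusted p = 0.985, 0.156 and 0.156), and the median bin from this viewpoint moved by -0.18 at the main scaling. DESeq2 also ended the calls of 69850001 (adjusted p = 0.114) and 70140001 (0.0648), which were present in 6 and 5 of 14 alternatives. Omission of any 1 WT sample or of ∆44/48 replicate 3 ended both, and omission of ∆44/48 replicate 1 ended that of 70140001. In the bin from 69860001 the WT levels of 2698.5, 2508.4 and 2752.1 compared with 1948.5, 1554.6 and 1451.7 in ∆44/48. What on chromosome 14 differed between the mice was not tested. The 2 groups thus differed in contacts on a chromosome that carries no edit.

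**Figure D5:**
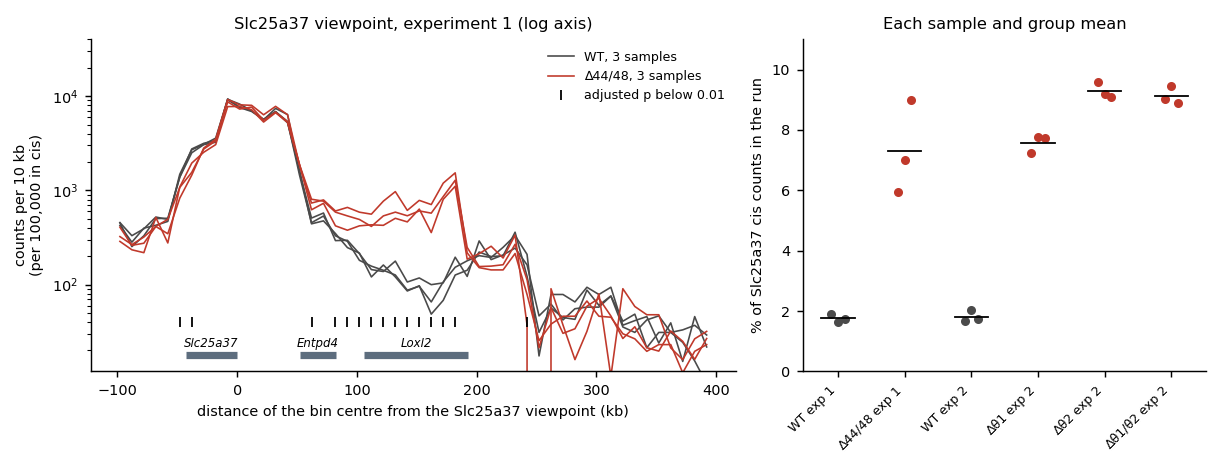
Left, normalised interactions per 10 kb bin from Slc25a37 (log scale, bins at 0 leave the axis) against distance from the viewpoint in kb, for 3 WT (grey) and 3 ∆44/48 (red) samples, with ticks under called bins and bars for genes. Right, the share of Slc25a37 cis counts in the run of called bins for each sample of both experiments (points, with group means as bars), where all WT samples lie between 1.64% and 2.04% and all samples with an edit on chromosome 11 between 5.95% and 9.6%.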

How the data were processed

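NG Capture-C was performed by the authors on 3 WT and 3 ∆44/48 samples of experiment 1. Per the labels and methods, reads were trimmed with Trim Galore, merged with FLASH, digested in silico with DpnII and aligned with Bowtie to mm9, and duplicates were removed. The deposited values are unnormalised counts, 1 for each distinct ligation between a viewpoint and a DpnII fragment. Rows that combine viewpoints were not used, and HS-39 had no counts.

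Counts within 1 kb of any capture fragment were left out, and the remaining cis total of each viewpoint and sample was the library size. Counts were summed over 10 kb bins (at least 30 counts), 15 segments, gene bodies and DpnII fragments (at least 10 counts). Each viewpoint was tested with edgeR 4.0.16 (R 4.3.3; quasi-likelihood test, ∆44/48 against WT, trended dispersion), with Benjamini-Hochberg adjustment over all features of that viewpoint and a threshold of 0.01. The methods name DESeq2, which was run as an alternative (1.42.0). Samples were grouped by their labels. The deleted bases were located by matching the study's allele sequences to NCBIM37, from which they are printed. Genes came from the annotation of that build. Named bins were, from each viewpoint, up to 5 called higher and 5 called lower with the lowest adjusted p-values, and the bins over the edits, HS+65 and HS+66; named genes were those between 31500001 and 33000000. Bins outside this rule that are named were chosen after their values were seen. Members, segments, genes and tests were chosen with earlier results of these data known.

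Replicate pairs differed by more than sampling noise (chi-square per degree of freedom at least 1.3), so each library counted as a separate sample. Equal replicate numbers did not mark paired samples (correlations of deviations -0.10 to 0.14). Counts were simulated with bins raised or lowered by 1 on the log2 scale. Among such bins with at least 200 counts, the bin test recovered 71.4% (HS-38, 7 bins), 85.7% (R2, 7 bins) and 80% (Slc25a37, 10 bins). Among all bins so changed it recovered 8%, 11% and 12%.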

Additional observations from a re-analysis of the deposited data

Results flagged for a closer look

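The gain of Slc25a37 contacts over Loxl2 was also present in samples outside the comparison. Experiment 2 held WT mice and mice with deletions of the θ1 site, the θ2 site or both, all on chromosome 11. Their chromosome 14 contacts are plotted above but enter no test there. The interval from 69980001 to 70090000 held 1.66%, 2.04% and 1.72% of Slc25a37 cis counts in the WT samples of experiment 2. It held a mean of 7.58% ± 0.298 (SD, n = 3) in ∆θ1, 9.29% ± 0.272 in ∆θ2 and 9.12% ± 0.3 in ∆θ1/θ2. None of the 9 samples overlapped the WT range (two-sided exact permutation p = 0.1 for each genotype, the smallest possible). The libraries of experiment 2 held 1150 to 45660 cis counts from Slc25a37, against 18784 to 86518 in experiment 1. The interval was chosen from experiment 1, and what on chromosome 14 differed between WT and edited mice was not tested.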

How the results depend on the processing

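Of the 110 bins called from the α-globin viewpoints, TMM scaling left 67, and leaving out single samples gave 64 to 123. From HS-38 (32) the count was 51 with 5 kb and 20 with 20 kb bins, from Hba-a1 (26) it was 11 with TMM scaling and 14 to 24 without single samples, and from Hba-a2 (23) 12 and 9 to 24. From R2 (7) it was 0 with TMM scaling, 1 with DESeq2, 12 with library sizes from within 1 Mb, 2 with bins of at least 1 count, 16 with at least 100 counts, 4 with 5 kb bins, 12 with bins shifted by 5 kb, 18 at a threshold of 0.05 and 0 to 16 without single samples. From Hbb-b1 (0) it was 6 with at least 1 count, 1 with 5 kb, 2 with 20 kb and 2 with shifted bins, and 0 to 3 without single samples. From Hbb-b2 (3) it was 7 with TMM scaling, 8 with at least 1 count, 1 with at least 100, 5 with shifted bins, 9 at 0.05 and 1 to 15 without single samples. From Slc25a37 (15) 5 kb bins gave 26. Calls of the edited fragments (3) went to 1 with at least 30 counts and 1 to 2 without single samples. Differences between viewpoints (3) went to 24 with TMM scaling, 11 at 0.05 and 0 to 7 without single samples, and distance classes (86) to between 45 and 102. Segments gave 22 to 27 calls (30) and genes 17 to 23 (21) without single samples.

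With a replicate block, R2 gave 13 bins and all α-globin viewpoints 116, segments gave 29 calls, genes 20 and the edited fragments 2. The replicate numbers did not pair the samples. The HS+48 fragment from R1 reversed to 0.01 with the block, 0.04 with library sizes from within 1 Mb, 0.08 without WT replicate 1 and 0.07 without ∆44/48 replicate 3 (-0.13 to 0.08 without single samples). Hba-x reversed from R1 to 0.06 and from Hba-a2 to 0.02 with library sizes from within 1 Mb, and from R1 to 0.01 without ∆44/48 replicate 3 (-0.06 to 0.01 without single samples). Each was near 0 in the main fit. The causes of these changes were not tested. Of 300 alternative values for single segments, 286 kept direction and side of the threshold and 14 fell short of it. For genes these numbers were 587 and 28 of 620, and for bins 579 and 85 of 669.

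Depth limits single bins: in simulated counts from HS-38, R2 and Slc25a37, 8%, 11% and 12% of the bins changed by 1 on the log2 scale were recovered. Recovery for fragments was not tested.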

Other observations

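The gain on chromosome 14 was present in every edited genotype without overlap with WT. Beyond the TAD on chromosome 11, ∆44/48 and ∆θ2 lay above WT without overlap. How the 2 gains relate was not tested. From Hba-a1, the share of cis counts beyond the TAD's downstream end, from 32245001 to 32500000, was 1.62% to 1.89% in the WT samples of experiment 1 and 3.38% to 3.75% in ∆44/48. In experiment 2 it was 1.54% to 1.99% in WT, 1.37% to 2.46% in ∆θ1, 2.07% to 3.41% in ∆θ2 and 1.68% to 1.95% in ∆θ1/θ2. The two-sided exact permutation p was 0.6 for ∆θ1 and 0.1, the smallest possible, for ∆θ2. Over the interval around HS+44 and HS+48, ∆44/48 held 3.11% to 3.71% against 4.6% to 4.98% in WT, and in experiment 2 WT held 5.26% to 5.32%, ∆θ1 4.5% to 6.02%, ∆θ2 6.09% to 7.08% and ∆θ1/θ2 6.95% to 7.53%. The 2 experiments were not compared by a test.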
